A study of Rattus norvegicus with 9 samples.

Results

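The endoplasmic reticulum (ER) chaperones and disulfide isomerases Hspa5, Hsp90b1, Hyou1, Dnajc3, Calr, Canx, P4hb, Pdia3, Pdia4, and Pdia6 were examined in knee cartilage of rats with knee osteoarthritis (KOA). They were taken by gene name from the deposited expression table, and these 10 genes of 32043 each stood on a single entry. The table gives FPKM, that is, fragment counts corrected for the length of the gene and for a size of each library, described below. An average of 0.5 FPKM or more over the 9 libraries was required for testing, which 13898 genes and all 10 of these genes met. The tissue came from male Sprague-Dawley rats, 8 weeks old when bought, in 3 groups of 3 libraries. In the model group the knee was destabilized by the modified Hulth operation, in which the medial collateral and anterior cruciate ligaments and the medial meniscus were taken out, followed by daily forced activity. Control rats had a sham operation that only opened and closed the capsule of the joint. Rats of the Shengyu decoction (SYD) group had the same ligament and meniscus operation as the model group and then received an extract of 7 botanical drugs by gavage for 4 weeks. The labels give no dose, and the study's text names the high-dose group. The columns of this group are headed CXTB although the sample titles read syd, and the study calls its positive-control group CXB. Its methods name only control and model cartilage for sequencing, whereas its results name the high-dose SYD group as well. The group is called SYD here after the titles. Tissue was taken 8 weeks after the operation. Nothing states whether a library is 1 animal or a pool, so p-values measure only the spread between these libraries. The operation was on 1 knee, and the labels name cartilage as the tissue although their extraction text mentions retina.

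Secreted and membrane proteins fold in the lumen of the ER. Hspa5 (BiP), an Hsp70 chaperone, and Hsp90b1, the Hsp90 chaperone of the ER, hold unfolded chains, Calr and Canx bind glycoproteins through their sugars, and the protein disulfide isomerases make and rearrange disulfide bonds. Unfolded protein in the lumen releases BiP from the sensors of the unfolded protein response (UPR), and the factors Atf6 and Xbp1 then raise transcription of chaperone genes through ER stress response elements in their promoters. Chondrocytes, which fill the joint surface with collagen and proteoglycan, carry a heavy secretory load.

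The promoters were read because many of the 10 genes are known targets of this response. The promoter windows used are those of RefSeq (build GRCr8), from 250 bases before to 50 bases after each start, and 8 of the 10 genes matched the table. Pdia3 and Pdia6 had no entry. The letters of the ER stress response element (ERSE), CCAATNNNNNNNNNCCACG on either strand, occurred in 22 of 33469 windows (0.0657%), and in the windows of 5 of these genes, Hspa5, Hsp90b1, Calr, Canx, and Dnajc3. The second form of the element (ERSE-II), ATTGGNCCACG, occurred in 17 windows (0.0508%) and among the 8 matched genes only in Hyou1. The UPR element TGACGTGG occurred in 199 windows (0.595%) and among the 8 matched genes only in Hyou1, where it shares bases with an ERSE-II match. None of the 3 was found in the windows of P4hb and Pdia4. A match is a description of the letters and not evidence of a bound site. The 250 bases before the start are shown for the 3 genes that carry the most matches or give the main chaperone, with the matched letters in capitals. They are Hspa5 at chr3:38452766-38453015 on the plus strand, Hsp90b1 at chr7:23012294-23012543 on the minus strand, and the upstream window of Hyou1 at chr8:53602632-53602881 on the plus strand, each written 5′ to 3′ along the gene.
Hspa5: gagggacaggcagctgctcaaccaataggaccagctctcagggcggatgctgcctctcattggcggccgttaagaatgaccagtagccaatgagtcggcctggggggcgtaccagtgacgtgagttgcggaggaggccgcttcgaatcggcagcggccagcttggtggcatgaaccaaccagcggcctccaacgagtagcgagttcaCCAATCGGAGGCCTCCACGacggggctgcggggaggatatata
Hsp90b1: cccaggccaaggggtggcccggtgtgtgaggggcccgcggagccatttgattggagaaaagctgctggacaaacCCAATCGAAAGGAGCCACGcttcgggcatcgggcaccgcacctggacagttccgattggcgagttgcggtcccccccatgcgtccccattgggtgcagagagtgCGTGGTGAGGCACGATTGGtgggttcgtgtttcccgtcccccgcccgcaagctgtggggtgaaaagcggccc
Hyou1: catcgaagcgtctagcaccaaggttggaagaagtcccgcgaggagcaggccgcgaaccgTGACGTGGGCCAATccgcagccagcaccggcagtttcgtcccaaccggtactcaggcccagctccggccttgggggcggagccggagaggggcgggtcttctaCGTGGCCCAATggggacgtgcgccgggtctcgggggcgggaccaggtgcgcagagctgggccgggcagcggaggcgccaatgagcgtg

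In Hspa5 the match lay at -43 to -25 from the start. Hsp90b1 held a match at -176 to -158 and another, on the opposite strand, at -72 to -54. In Hyou1 the ERSE-II matches lay at -188 to -178 and at -88 to -78. The 19-base matches in the other 3 genes, given as they read along the gene, are shown so that the spacer between the fixed letters can be compared. That of Calr reads on the opposite strand.
Calr: CGTGGTCGACCCTGATTGG
Canx: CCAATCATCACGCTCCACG
Dnajc3: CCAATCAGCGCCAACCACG

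Depth and composition differed between the libraries in ways that touched every comparison. Reads recovered from the FPKM steps totalled 14914121 to 19510537 per library. Mitochondrial genes took 4.05% to 4.86% of them in control, 90.7%, 39.5%, and 81.3% in model 1, 2, and 3, and 23.7%, 34.7%, and 72.7% in SYD 1, 2, and 3. This left 1744769 reads of other genes in model 1 and 3611325 in model 3, against 14306782 to 17373645 in control. The library size by which the FPKM were divided, recovered from the same steps, was 3.64e+06 in model 1 and 6.65e+06 in model 3. It was 3.00e+07 to 3.94e+07 in control, so it went with the reads of other genes and not with the total. Fewer genes had any read in these libraries, 9300 in model 1 and 10838 in model 3, against 18909 to 19337 in control. The cartilage label was checked with 16 chondrocyte markers, among them Col2a1, the main cartilage collagen. Their summed FPKM was 12173, 509, and 6248 in control 1, 2, and 3, 185 to 956 in model, and 181 to 2737 in SYD, with no marker at 0 in all libraries of a group. All 16 were below 0 in model against control (median -3.26, over all tested genes -0.23), and 9 met the criteria for differential expression given below as lower, beside 11.2% of all tested genes. In SYD against model 15 were above 0 (median 1.49), and in SYD against control 14 were below 0 (median -1.73). None of the 16 passed an adjusted p of 0.05 in limma in any comparison. The part of this marker change in the levels of the 10 genes was not tested. Col2a1 itself was at 348 FPKM in control 2 against 8323 and 4468 in control 1 and 3. In bulk tissue, fewer cells of a type and less RNA per cell cannot be told apart.

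Hspa5 (ENSRNOG00000018294, chr3:18055405-18059891 in the authors' table, whose build is not given in the sources used here) was found at 92.6, 63.5, and 67.3 FPKM in control 1, 2, and 3, at 29.5, 60.2, and 44.0 in model, and at 89.5, 89.7, and 63.3 in SYD. Every model library lay under every control library and every SYD library. The mean was 74.5 ± 15.8 in control, 44.6 ± 15.3 in model, and 80.8 ± 15.2 in SYD (SD, n = 3). The log2 fold change, taken on log2(FPKM + 1) throughout, was -0.76 ± 0.33 (SE) in model against control, with a Benjamini-Hochberg adjusted p = 0.275 in limma. It was 0.88 ± 0.33 in SYD against model, with adjusted p = 0.723 in limma.

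Hsp90b1 (ENSRNOG00000026963, chr7:21110457-21124788), which folds integrins and Toll-like receptors among others, was found at 82.8, 53.3, and 60.2 FPKM in control, at 26.3, 65.2, and 23.8 in model, and at 82.1, 69.8, and 67.3 in SYD. Model 1 and model 3 lay far below control, whereas model 2 lay within the control range. All SYD libraries were above all model libraries. The log2 fold change was -0.88 ± 0.43 in model against control (adjusted p = 0.337, limma) and 1.06 ± 0.42 in SYD against model (adjusted p = 0.723, limma).

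Dnajc3 (ENSRNOG00000010352, chr15:96025624-96065181), a J-domain partner of BiP that also holds back the UPR kinase Perk, gave 13.2, 9.39, and 11.2 FPKM in control, 3.44, 6.81, and 6.84 in model, and 13.4, 12.7, and 13.2 in SYD. The model libraries lay below all others, and the SYD libraries lay close to each other near the top of the control range. The model 1 value rests on 25 reads, for which an exact Poisson interval spans 2.22 to 5.07 FPKM and covers counting error only. The mean of 5.70 ± 1.96 in model was 0.506 times that of control, and the mean of 13.1 ± 0.378 in SYD was 2.30 times that of model. The log2 fold changes were -0.91 ± 0.33 (adjusted p = 0.214, limma) and 1.12 ± 0.35 (adjusted p = 0.723, limma). Of the 10 genes it had the lowest p over the 3 groups, with adjusted p = 0.127 in the limma F test.

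Hyou1 (ENSRNOG00000010944, chr8:44706263-44718186), an Hsp110-type chaperone that exchanges the nucleotide of BiP, was the gene furthest from control. It was found at 13.8, 9.72, and 10.6 FPKM in control, at 1.60, 7.59, and 0 in model, and at 7.36, 9.66, and 3.90 in SYD. All 3 model and all 3 SYD libraries were below the lowest control library, SYD 2 only narrowly. Model 1 held 26 reads, with an exact Poisson interval of 1.04 to 2.34 FPKM. Model 3 held 0 reads, where 3 reads, taken as the limit that a count of 0 allows, would be 0.101 FPKM. That limit covers counting error only. Another ER gene, Fkbp11, had 0 reads in model 1 although it was at 39.1 and 27.5 FPKM in model 2 and 3. The log2 fold change was -2.12 ± 0.78 in model against control (adjusted p = 0.211, limma) and 1.43 ± 0.83 in SYD against model (adjusted p = 0.723, limma). Without model 3 the log2 fold change in model against control was -1.38, and with voom on the recovered reads it was -4.05. In SYD against model the same fits gave 0.68 and 2.70. Between SYD and model the libraries overlapped.

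Calr (ENSRNOG00000003029, chr19:23308351-23313414), the soluble lectin chaperone and a calcium store of the ER, had the highest level of the 10 genes in every library except model 3. It was found at 195, 142.4, and 145 FPKM in control, at 84.1, 142.3, and 91.7 in model, and at 156, 161, and 162 in SYD. Model 2 was just under the lowest control library, so that the model libraries did not overlap either other group. The SYD libraries spread by only 3.32 (SD, n = 3) around 160 FPKM, against 29.8 in control. In log2 fold change it differed by -0.62 ± 0.30 in model against control and by 0.63 ± 0.29 in SYD against model, with adjusted p = 0.335 and 0.723 in limma.

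Canx (ENSRNOG00000003343, chr10:34625191-34656821) is the membrane-bound lectin chaperone. It was found at 67.0, 66.2, and 65.1 FPKM in control, at 21.5, 70.2, and 49.0 in model, and at 57.2, 55.2, and 46.7 in SYD. The control libraries were nearly equal, model 2 exceeded them all, and all 3 SYD libraries were below them. In log2 fold change it differed by -0.64 ± 0.43 in model against control and by 0.32 ± 0.44 in SYD against model, with adjusted p = 0.481 and 0.821 in limma. Without model 1 these values were -0.17 and -0.15.

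Among the isomerases, Pdia3 (ENSRNOG00000015018, chr3:108388245-108413236), which works on the glycoproteins held by Calr and Canx, was found at 51.3, 39.8, and 40.1 FPKM in control, at 8.83, 43.2, and 29.9 in model, and at 48.7, 55.2, and 35.9 in SYD. Only model 2 reached the control range, and SYD 3 lay below it. Pdia4 (ENSRNOG00000006228, chr4:76803198-76822107), an isomerase with several thioredoxin-like domains, was found at 28.2, 16.7, and 18.7 FPKM in control, at 3.57, 26.6, and 11.4 in model, and at 25.9, 26.1, and 14.6 in SYD. The model libraries ran from 37 reads of the gene in model 1 to 2004 in model 2, and spanned most of its range over the 9 libraries. For Pdia3 and Pdia4 the log2 fold changes in model against control were -0.90 ± 0.56 and -0.90 ± 0.66, with adjusted p = 0.441 and 0.512 in limma, and in SYD against model 0.98 ± 0.57 and 0.95 ± 0.67, with adjusted p = 0.723 for both. Model 1 carried much of these values. Without it they were -0.27 and -0.23 in model against control and 0.34 and 0.28 in SYD against model, and with voom on the recovered reads Pdia4 was at -0.10 in model against control.

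Pdia6 (ENSRNOG00000050197, chr6:40062926-40080613), an isomerase that binds BiP, was found at 47.6, 36.1, and 34.7 FPKM in control, at 19.1, 34.0, and 9.90 in model, and at 41.9, 45.6, and 39.9 in SYD. The model libraries were below all others, model 2 by a small margin. The log2 fold change was -1.02 ± 0.45 in model against control (adjusted p = 0.284, limma) and 1.14 ± 0.44 in SYD against model (adjusted p = 0.723, limma). Without model 3 these values were -0.59 and 0.71. A further entry described as similar to Pdia6, LOC685171, had 0 reads in all libraries.

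P4hb (ENSRNOG00000036689, chr10:105836982-105848500) is the founding disulfide isomerase and also a subunit of collagen prolyl 4-hydroxylase. It was found at 120, 58.0, and 81.2 FPKM in control, at 45.2, 98.5, and 107 in model, and at 113, 109, and 80.7 in SYD. Model 3, in which Hyou1 had no read, was exceeded only by control 1, SYD 1, and SYD 2 for P4hb, and the groups overlapped throughout. The log2 fold change was -0.08 ± 0.44 in model against control (95% interval -1.14 to 0.98) and 0.35 ± 0.39 in SYD against model (95% interval -0.59 to 1.29), with adjusted p = 0.941 and 0.779 in limma.

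**Figure D1:**
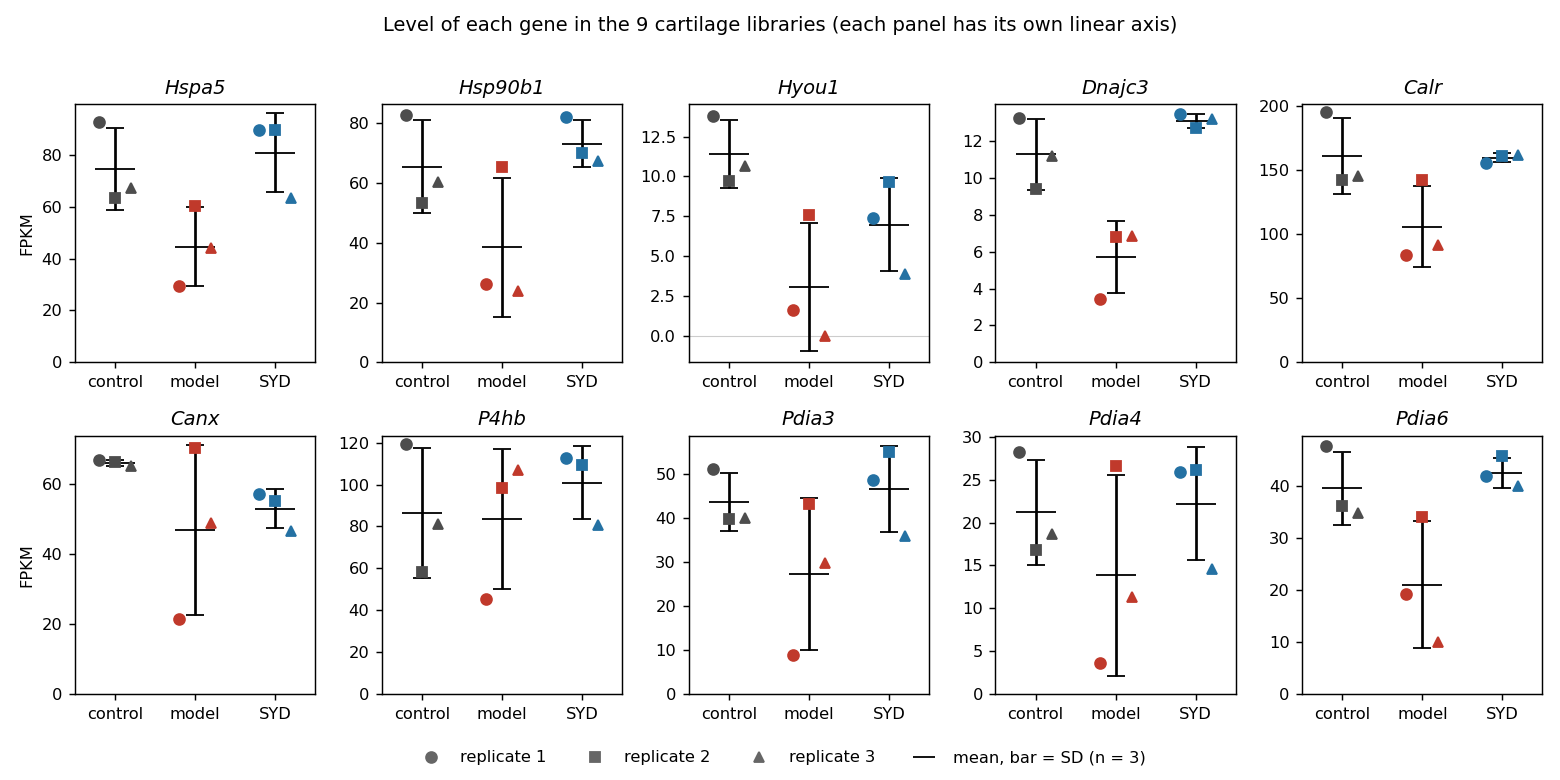
FPKM (vertical axes, linear, different in each panel) of the 10 genes in the control, model, and SYD libraries, with symbols for replicates 1 to 3 and a bar for the mean and SD (n = 3). Model 2 sits near the control libraries in most panels, Dnajc3 is at 6.84 or below in all model libraries and at 12.7 or above in all SYD libraries, and the lower SD bar of Hyou1 in model passes below 0 because the SD exceeds the mean.

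Levels are per kilobase of gene length, so the genes can also be ranked against each other. In control the order of mean FPKM was Calr, P4hb, Hspa5, Canx, Hsp90b1, Pdia3, Pdia6, Pdia4, Hyou1, and Dnajc3. The ranges of neighbours overlapped from P4hb to Hsp90b1, between Pdia3 and Pdia6, and between Hyou1 and Dnajc3, whereas Calr stood alone at 161 ± 29.8. In SYD the order was the same except that Hsp90b1 passed Canx and Dnajc3 passed Hyou1, in each case without overlap of the ranges. In model all neighbours overlapped. Hyou1 and Dnajc3 held the last 2 ranks in all 9 libraries, and Calr held rank 1 in all but model 3, where P4hb did.

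For model against control, which asks what the operation did to these genes, all 10 log2 fold changes were below 0, with a median of -0.89. Among all 13898 tested genes the median was -0.23 and 61.3% were below 0, so the median of the 10 genes stood at -0.67 relative to that shift. The relative value depended on the processing and was -0.38 with a pseudocount of 0.1 in place of 1 and -0.13 with voom on the recovered reads. It was -0.97 with quantile normalization and -0.89 without the filter on mean FPKM. None of the 10 passed an adjusted p of 0.05 in limma, as did 2.59% of all tested genes, and 2 genes had an unadjusted p under 0.05, Hyou1 and Dnajc3, beside 19.2% of all tested genes. By the study's criteria for differentially expressed genes (DEGs), an unadjusted p under 0.05 with a log2 fold change beyond 1 in either direction, 1 of the 10 genes was called, Hyou1, beside 14.7% of all genes in either direction and 11.2% of all genes lower in model. For 5 genes, Hspa5, Calr, Hyou1, Dnajc3, and Pdia6, every model library was below every control library, as for 20% of all tested genes. An exact permutation test of 3 libraries against 3 cannot go below 0.1 (two-sided), the value it gave for these 5.

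These counts rested on the choice of libraries. Without model 2, the library nearest to control, 2 genes passed the adjusted threshold in limma, Hsp90b1 (-1.33, adjusted p = 0.0264) and Hyou1 (-2.93, adjusted p = 0.0217), among 18.9% of all tested genes. In the same fit 6 genes met the DEG criteria, these and Hspa5, Dnajc3, Pdia4, and Pdia6, beside 24.1% of all genes. Leaving out model 1 or any of the control libraries left 0 genes that met the criteria, and without model 3 the gene that met them was Dnajc3 in place of Hyou1. Without model 1 the median of the 10 genes was -0.49 (-0.36 relative to all tested genes) and P4hb stood above 0, at 0.31. Without control 1 P4hb was at 0.19, and the other 9 genes stayed below 0.

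For SYD against model, which asks what the treatment did after the operation, all 10 log2 fold changes were above 0, with a median of 0.97 against 0.22 over all tested genes, of which 37.5% were below 0. This comparison shares its model libraries with the previous comparison, so the 2 sets of values are not independent. No gene of the 10 passed an adjusted p of 0.05 in limma, and the share of all tested genes that did was 0%. Unadjusted, 4 genes had p under 0.05, Dnajc3, Hspa5, Pdia6, and Hsp90b1, beside 5.26% of all tested genes. Of these, 3 met the DEG criteria, Hsp90b1, Dnajc3, and Pdia6, all higher in SYD, beside 4.15% of all genes in either direction and 3.62% higher in SYD. For Hspa5, Hsp90b1, Calr, Dnajc3, and Pdia6, 5 of the 10 genes, every SYD library was above every model library, as for 7.89% of all tested genes. The fold of the means for these 5 ran from 1.51 for Calr to 2.30 for Dnajc3.

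The SYD and model difference also moved with single libraries. Without model 1 the median of the 10 genes was 0.55, and Canx (-0.15) and P4hb (-0.04) stood below 0. Relative to all tested genes the median was 0.75 with all libraries, 0.43 without model 1, and 0.45 with voom on the recovered reads. Without model 2, 7 genes met the DEG criteria (Hspa5, Hsp90b1, Hyou1, Dnajc3, Pdia3, Pdia4, and Pdia6), beside 18.0% of all genes, and none passed the adjusted threshold in limma. Without model 1, or without SYD 1, 0 genes met the criteria, and without model 3, or without SYD 2, 1 did.

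**Figure D2:**
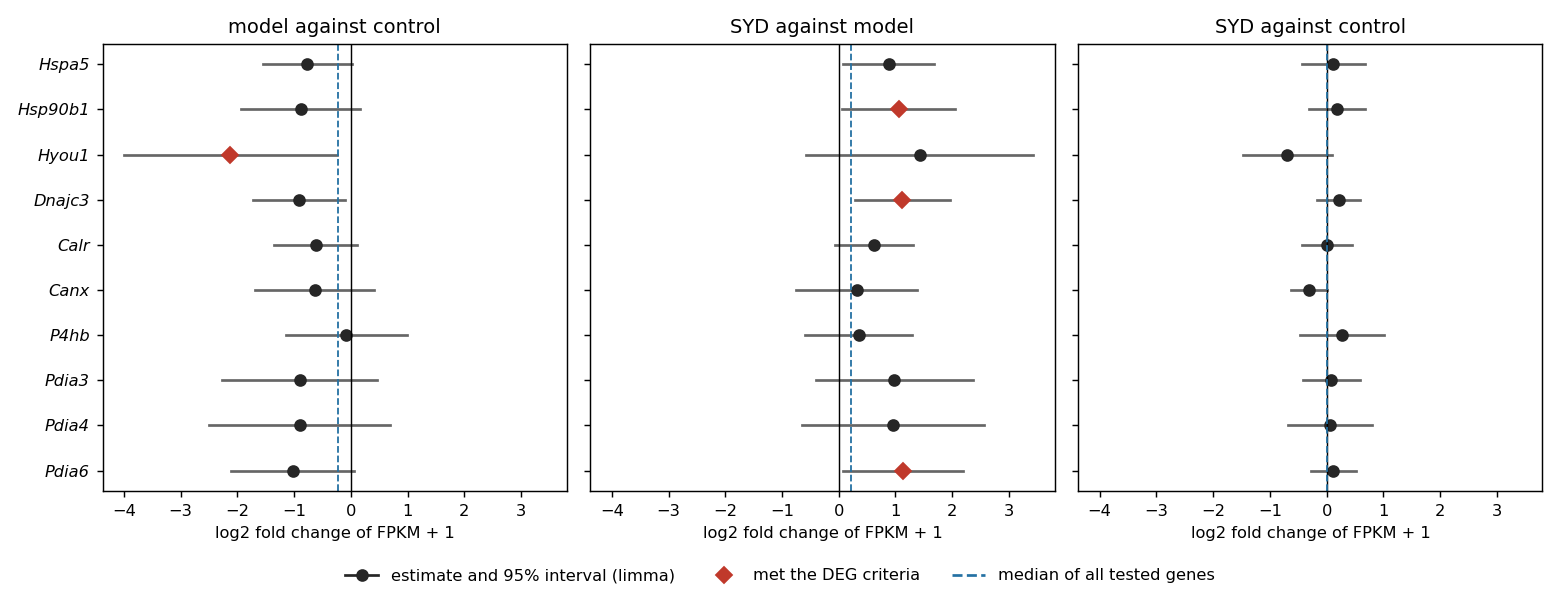
Log2 fold changes of FPKM + 1 (horizontal axes) of the 10 genes (rows) with 95% intervals from limma in the 3 comparisons, 3 libraries a group, with diamonds for genes that met the DEG criteria and a dashed line at the median of all tested genes. Values run from -2.12 to -0.08 in model against control, from 0.32 to 1.43 in SYD against model, and from -0.69 to 0.27 in SYD against control, where the intervals are narrowest.

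For SYD against control, which asks how far treated cartilage was from the sham operation, 8 of the 10 log2 fold changes were above 0 and 2 below, with a median of 0.10. The median over all tested genes was 0. Without SYD 2, 5 of the 10 genes were above 0 and 5 below. With 1 library left out the median of the 10 genes ran from 0.015 (without control 2) to 0.26 (without control 1). None of the 10 passed an adjusted p of 0.05 in limma, beside 17.3% of all tested genes, and 1, Canx, had an unadjusted p under 0.05, beside 34.5%. None met the DEG criteria, beside 16.5% of all genes. With voom on the recovered reads in place of log2(FPKM + 1), limma called 0 of the 10 genes past the adjusted threshold in each of the 3 comparisons. The 2 genes below 0, Canx and Hyou1, were also those whose SYD libraries were all below control, as for 22.2% of all tested genes. Canx differed by -0.32 ± 0.13 (95% interval -0.63 to -0.0016, adjusted p = 0.144, limma), and its mean was 53.0 ± 5.55 against 66.1 ± 0.929 FPKM. Hyou1 differed by -0.69 ± 0.32 (95% interval -1.47 to 0.09, adjusted p = 0.183, limma), and its mean was 6.98 ± 2.90 against 11.4 ± 2.13 FPKM. For the other 8 genes the differences ran from 0.00 for Calr to 0.27 for P4hb, and their 95% intervals reached from -0.69 (Pdia4) to 1.00 (P4hb). All 8 intervals held 0, and the narrowest were those of Dnajc3 (-0.16 to 0.59), Pdia6 (-0.28 to 0.51), and Calr (-0.44 to 0.45).

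Over the 3 groups, the limma F test gave an unadjusted p under 0.05 for Hspa5, Hsp90b1, Hyou1, Dnajc3, and Pdia6, beside 20.5% of all tested genes. None of the 10 genes passed an adjusted p of 0.05, beside 2.32% of all tested genes. Without model 2 the F test called 4 genes, Hsp90b1 (adjusted p = 0.0151), Hyou1 (adjusted p = 0.0170), Pdia6 (adjusted p = 0.0232), and Dnajc3 (adjusted p = 0.0477, all limma), among 18.7% of all tested genes.

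Read by library rather than by group, the 10 genes were lowest in the libraries richest in mitochondrial reads. In model 1 all 10 genes were below the control range, with a median of 36.1% of the control mean, beside 57.7% of all tested genes below that range. In model 3, 9 genes were below it with a median of 58.0%, and P4hb alone was not, beside 52.9% of all tested genes. In model 2, 5 genes were below it, near the 41.9% of all tested genes, with a median of 93.6% of the control mean for the 10 genes. The medians in SYD 1, 2, and 3 were 115%, 114%, and 89.3%, in the order of their mitochondrial shares from low to high. The median over all tested genes was 56.0%, 96.8%, and 70.2% of the control mean in model 1, 2, and 3, so in each of them the median of the 10 genes was the lower. With the mitochondrial share as a covariate, chosen after seeing the data, the log2 fold changes of model against control turned above 0 for 9 genes (median 0.90, over all genes 0.20) and 0 genes met the DEG criteria in any comparison. In that fit Dnajc3 alone remained below 0, at -0.17. In SYD against model the same covariate took the median from 0.97 to 0.47 (over all genes 0.10), with Canx below 0 at -0.13. In these 9 libraries the mitochondrial share and the operation go together, and their parts cannot be told apart.

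**Figure D3:**
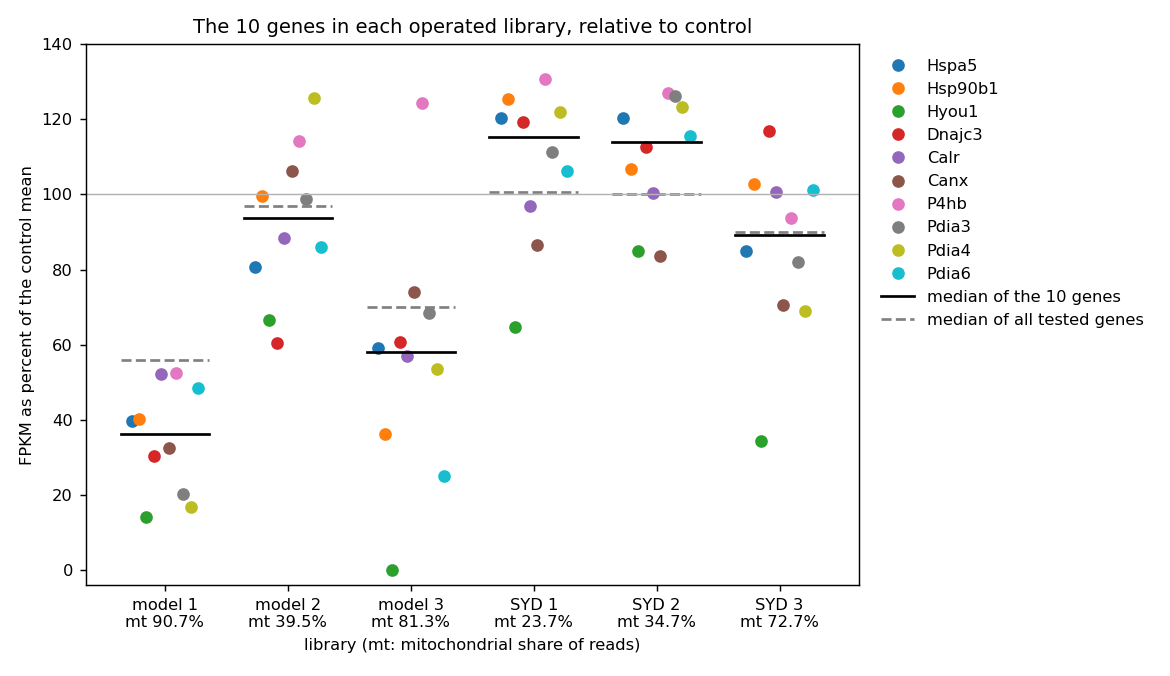
FPKM as percent of the control mean (vertical axis) of the 10 genes in each model and SYD library (horizontal axis, with the mitochondrial share of reads), with lines at the medians of the 10 genes (solid) and of all tested genes (dashed). Model 1 and model 3 hold medians of 36.1% and 58.0%, model 2 lies at 93.6%, and SYD 3 is the lowest of the SYD libraries at 89.3%.

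Summed over the 10 genes, the level was 711, 495, and 534 FPKM in control, 243, 555, and 374 in model, and 635, 635, and 528 in SYD. Model 2 and the SYD libraries were within the control range. As a share of all reads of non-mitochondrial genes, the 10 genes held 0.424%, 0.321%, and 0.346% in control. They held 0.140% (Wilson 95% interval 0.135% to 0.146%), 0.381%, and 0.1995% (0.195% to 0.204%) in model, and 0.391%, 0.403%, and 0.328% in SYD. The intervals cover counting error only, and reads are not independent molecules. Set against the summed FPKM of 27 cytosolic chaperones, the ratio was 0.929, 0.575, and 0.726 in control, 0.326, 0.814, and 0.393 in model, and 0.940, 0.861, and 0.827 in SYD. Model 1 and model 3 were lowest in the sum, in the share, and in this ratio. They were not lowest against the other genes of ER folding, where the ratio was 0.774, 0.817, and 0.731 in control, 0.568, 0.541, and 0.760 in model, and 0.647, 0.586, and 0.613 in SYD. On that scale model 2 was the lowest library, model 1 was next and also below control, model 3 was within the control range, and all SYD libraries were below control. Against the collagen folding genes the ratio was 1.15, 0.869, and 2.02 in model, within 0.924 to 3.11 in control except for model 2, and 0.899, 0.819, and 1.19 in SYD, where SYD 1 and SYD 2 were below control. Against the UPR sensors and factors the ratio was 1.82 in model 1 and 2.26 in model 3, and against the mitochondrial chaperones 1.83 and 2.65. Against the genes of translocation and glycosylation it was 0.481 and 0.532. In each of these ratios model 1 and model 3 were the lowest libraries.

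Shares within the sum of the 10 genes are left as they are by any scaling of a library. Hyou1 made up 1.94%, 1.96%, and 1.99% of the sum in control, 0.658%, 1.37%, and 0% in model, and 1.16%, 1.52%, and 0.740% in SYD. It was below control in every model and every SYD library. Dnajc3 made up 1.95% ± 0.124 in control, 1.49% ± 0.310 in model, and 2.20% ± 0.259 in SYD (SD, n = 3), with the model libraries below all others. P4hb made up 14.6% ± 2.60 in control, 21.7% ± 6.08 in model, and 16.8% ± 1.29 in SYD, and its model libraries, 17.8% to 28.7%, were just above all others, with model 2 and SYD 1 nearly equal. Hspa5 was at 12.8% ± 0.208 in control and 11.6% ± 0.672 in model without overlap, and Canx was at 11.7% ± 2.03 in control and 8.85% ± 0.156 in SYD without overlap. Each of these separations has an exact permutation p of 0.1, the smallest that 3 libraries against 3 allow, so none passed a threshold of 0.05. The shares of Hsp90b1, Calr, Pdia3, Pdia4, and Pdia6 overlapped between the groups.

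**Figure D4:**
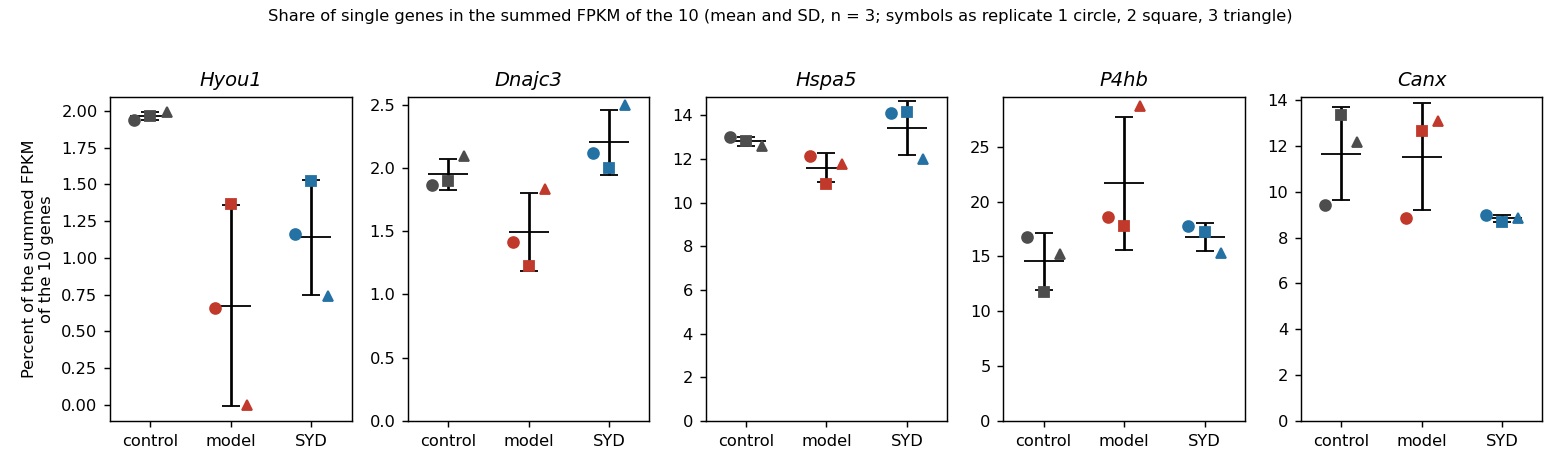
Percent of the summed FPKM of the 10 genes (vertical axes, linear, different in each panel) held by Hyou1, Dnajc3, Hspa5, P4hb, and Canx in the 9 libraries, with mean and SD bars (n = 3). Hyou1 is at 1.94% to 1.99% in control and below 1.53% elsewhere, and P4hb reaches 28.7% in model 3.

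Other genes of the secretory pathway, from lists of known function, were read beside these. Of 37 tested ER folding genes outside the 10, none passed the adjusted threshold in limma in model against control (median -0.44, 6 with an unadjusted p under 0.05) or in SYD against model (median 0.81, 1 with an unadjusted p under 0.05). In SYD against control 2 of 37 did, a smaller share than the 17.3% of all tested genes, both higher, the prolyl isomerases Fkbp7 (1.30, adjusted p = 0.0492, limma) and Fkbp11 (1.30, adjusted p = 0.0378, limma). The 5 genes of this list that met the DEG criteria in model against control, named after their values were seen, were all lower: Mogs, Ganab, Uggt1, Sdf2l1, and Txndc11, with adjusted p from 0.105 to 0.211 in limma. Their share of the 37 is close to the 11.2% of all tested genes that met these criteria as lower in model. Mogs and Ganab trim the glucose residues that bring a glycoprotein to Calr and Canx, and Uggt1 puts a glucose back on a misfolded chain. Uggt1 was at 7.34, 3.89, and 5.91 FPKM in control, at 0, 3.89, and 0 in model, and at a mean of 2.14 in SYD, where the lowest library was at 0.535, and all SYD libraries were below the control range (-1.19, adjusted p = 0.119, limma). Mogs was at 14.1, 13.8, and 11.9 FPKM in control, at 0, 5.11, and 0 in model, and at 10.02, 7.80, and 6.46 in SYD, and its log2 fold change in SYD against model was 2.30 ± 0.79 (adjusted p = 0.723, limma). Ganab was at 35.3, 24.9, and 27.0 FPKM in control, at 7.39, 20.3, and 2.37 in model, and at 24.3, 23.7, and 23.5 in SYD. Its partner subunit of glucosidase II, Prkcsh, was at a mean of 29.7, 29.9, and 28.8 FPKM in control, model, and SYD.

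Of 11 genes that fold and modify collagen, such as the collagen chaperone Serpinh1, all were below 0 in model against control (median -0.47) and above 0 in SYD against model (median 1.15), and none passed the adjusted threshold in limma in any comparison, with 2 at an unadjusted p under 0.05, both in SYD against model. Serpinh1 was at 407, 80.3, and 213 FPKM in control, at 105, 344, and 99.7 in model, and at 306, 411, and 231 in SYD, so control 2 was as low as model 1 and model 3 there. Of 25 tested genes of translocation into the ER and of N-glycosylation, 19 were below 0 in model against control (median -0.64) and 20 above 0 in SYD against model (median 0.67), with 0 past the adjusted threshold in limma in the 3 comparisons and 5, 0, and 5 at an unadjusted p under 0.05 in model against control, SYD against model, and SYD against control. Of 13 tested UPR sensors and factors, 10 were below 0 in model against control (median -0.65) and 12 above 0 in SYD against model (median 0.52), with 2, 1, and 5 at an unadjusted p under 0.05 in the same order of comparisons. Among them 1 passed the adjusted threshold, in SYD against control, the membrane-bound factor Atf6b at -0.59 (adjusted p = 0.0328, limma), a smaller share than the 17.3% of all tested genes. Atf6b was at 19.8, 20.5, and 18.0 FPKM in control, at 0, 8.55, and 3.15 in model, and at 12.1, 11.6, and 14.0 in SYD. Xbp1, whose product acts on the elements printed above, was at 45.3, 29.1, and 34.9 FPKM in control, at 19.6, 30.1, and 27.3 in model, and at 35.6, 44.0, and 28.4 in SYD, with overlap between control and model.

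The chaperones of other compartments were read in the same way. Of 26 tested cytosolic chaperones the median log2 fold change was -0.07 in model against control and -0.03 in SYD against model, and 0 passed the adjusted threshold in limma in either, with 3 and 1 at an unadjusted p under 0.05. In SYD against control 2 were higher, the inducible Hsp70 gene Hspa1b (1.90, adjusted p = 0.0162, limma) and its co-chaperone Bag3 (1.59, adjusted p = 0.0261, limma), and 4 were lower, a share of the list near the 17.3% of all tested genes. The lower genes were Hsp90aa1 (-1.25, adjusted p = 0.0130, limma) and, named after their values were seen, Hsp90ab1, Cct8, and Tcp1. Hsp90aa1, a cytosolic counterpart of Hsp90b1, was at 82.6, 109, and 83.8 FPKM in control, at 64.6, 45.4, and 51.2 in model, and at 40.9, 41.0, and 32.2 in SYD. Of 8 mitochondrial chaperones the median was -0.42 in model against control and -0.05 in SYD against model, and Hspd1 alone passed the adjusted threshold, in SYD against control (-0.84, adjusted p = 0.0404, limma), a smaller share than that of all tested genes. These lists were not tested against each other.

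**Figure D5:**
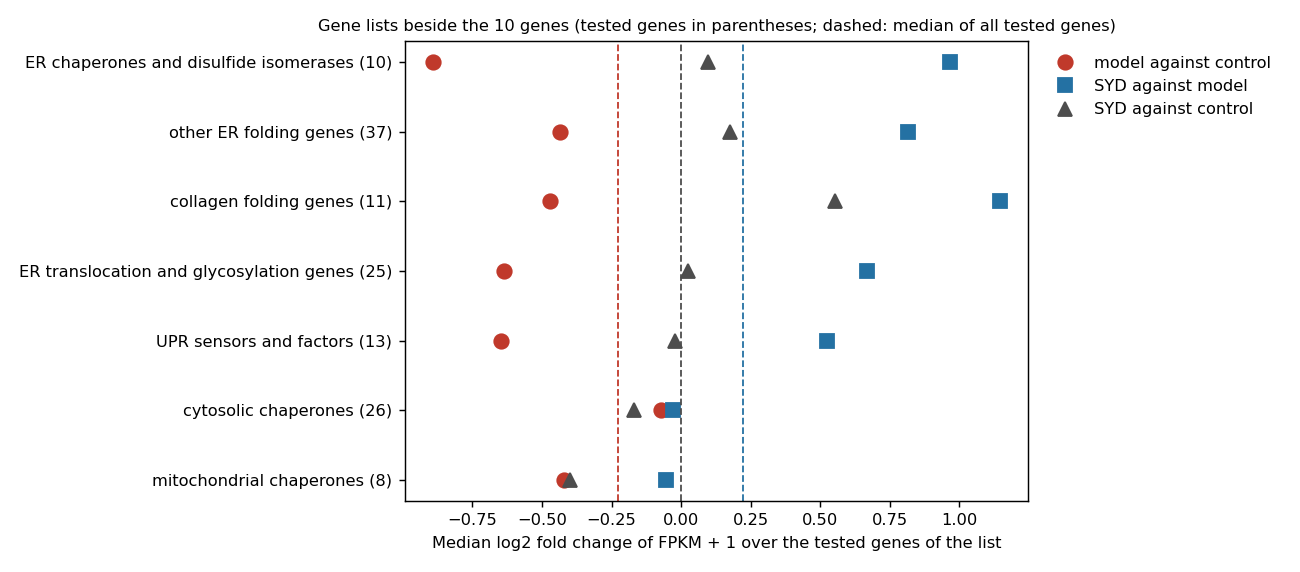
Median log2 fold change of FPKM + 1 (horizontal axis) over the tested genes of each list (rows, number of tested genes in parentheses) in the 3 comparisons, with dashed lines at the median of all tested genes. The 10 genes stand at -0.89, 0.97, and 0.10, whereas the cytosolic chaperones stand at -0.07, -0.03, and -0.17.

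Markers of other secretory cells moved between the groups as well. The summed FPKM of 10 plasma cell markers was 325 to 449 in control, 38.5 to 143 in model, and 59.4 to 80.8 in SYD, and Tnfrsf17, Derl3, and Eaf2 were at 0 in all model libraries and Tnfrsf17 in all SYD libraries. Of the 8 tested, 4 met the DEG criteria in model against control, all lower, beside 11.2% of all tested genes, and in SYD against control 5 were lower and 2 higher at an adjusted p under 0.05 in limma, beside 17.3%. Of 10 osteoblast markers, secretory cells of bone, none was at 0 in a whole group, and their sum was 8775, 4329, and 7051 in control, 3899, 12807, and 2097 in model, and 16314, 13535, and 12919 in SYD. Model 1 and model 3 were thus below control for osteoblast markers, as for the 10 genes, but model 2 was above every control library, where the sum of the 10 genes was within the control range. Model 2 was also the highest model library for 9 synovial fibroblast markers (84.2, 268, and 111 FPKM in model 1, 2, and 3) and 7 endothelial markers (27.1, 216, and 66.7). The sum of 8 erythroid markers ran the other way among the model libraries, at 38196, 296, and 42460 in model 1, 2, and 3, against 6541 to 16249 in control and 1310 to 13572 in SYD, with none at 0 in a whole group. The hemoglobin gene Hba-a1 carried most of that sum, at 31685, 243, and 34883 FPKM in model 1, 2, and 3, and 7 of the 8 log2 fold changes in model against control were below 0 (median -1.90), with none past the adjusted threshold in limma. In SYD against control all 8 were below 0 (median -2.84) and 5 met the DEG criteria, beside 16.5% of all tested genes. Epb42 alone passed the adjusted threshold there (-2.87, adjusted p = 0.0333, limma). Of the 10 osteoblast markers 9 were above 0 in that comparison (median 0.84). Spp1 (2.53, adjusted p = 0.0186) and Runx2 (1.41, adjusted p = 0.0212) passed the threshold in limma, 2 of 10 beside 17.3% of all tested genes. The part of these cells in the levels of the 10 genes was not tested.

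The genes most like the sum of the 10 were sought among 3011 other genes averaging 10 FPKM or more, by Pearson's correlation of log2(FPKM + 1) over the 9 libraries. The 5 highest were Tmed9 (0.988), Ssr2 (0.981), Rpn2 (0.980), Tm9sf3 (0.980), and Yipf3 (0.979). Ssr2 and Rpn2 belong to the machinery of translocation and N-glycosylation, and Tmed9 to transport between ER and Golgi. Over the 6 control and SYD libraries alone the values were 0.940, 0.850, 0.939, 0.858, and 0.817. The libraries share their depth and mitochondrial share on every gene, so these values are a description. Tmed9 was at 40.9, 20.8, and 28.5 FPKM in control, at 3.09, 29.3, and 12.6 in model, and at 31.9, 39.2, and 25.1 in SYD. Each member was also set against the sum of the other members. Hspa5 followed it most closely over the 9 libraries (0.970) and P4hb least (0.635), whereas over the 6 control and SYD libraries P4hb was at 0.899 and Canx was least, at 0.022.

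Genes outside the 10 whose promoter windows hold an ERSE give a view that does not rest on the choice of members. There were 16 of them, of which 13 were in the expression table and 10 were tested. Their median log2 fold change was -0.45 in model against control, 0.26 in SYD against model, and -0.05 in SYD against control, where all tested genes had medians of -0.23, 0.22, and 0. In limma 0 passed the adjusted threshold in the comparisons with model, with 2 at an unadjusted p under 0.05 in model against control and 0 in SYD against model. In SYD against control Zfand2a was higher (0.87, adjusted p = 0.0238, limma) and Birc5, a cell division gene, was lower (-2.51, adjusted p = 0.0219, limma), a share of the 10 near the 17.3% of all tested genes. Creld2 and Xbp1, known targets of the response, were among the other 8, and Creld2 was at 16.1, 13.8, and 14.1 FPKM in control, at 7.02, 13.9, and 10.1 in model, and at 13.8, 13.8, and 14.8 in SYD, again lowest in model 1 and model 3.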

How the data were processed

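Knee cartilage RNA-seq was analysed in 9 libraries, grouped by the titles in their labels and not by the column names. The authors deposited 1 table of FPKM per gene and library. The submitters' processing notes name HISAT2 2.0.5 and the build hg38, although the gene identifiers are those of rat, and the counting tool and annotation are not given in the sources used here. FPKM times gene length was a whole multiple of a step per library for 100% of values (tolerance 0.1), which gave the reads and depth, and 0 columns of values were left out.

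Log2(FPKM + 1) was fitted with limma 3.58.1 (R 4.3.3, lmFit, eBayes with trend, two-sided) to the 6 libraries of each comparison, or to all 9 for the F test, over genes averaging 0.5 FPKM or more, with Benjamini-Hochberg adjustment. The code of the fit was run on simulated data with the spread of control in both groups, which leaves the wider spread of model untested. Summaries and exact permutation tests used Python 3.11.15, pandas 2.3.3, and scipy 1.17.1. DEGs followed the study's criteria. Counting intervals were at 95%, and 3 reads were the floor.

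The 10 genes, the lists (ER folding, collagen folding, translocation and glycosylation, UPR, cytosolic and mitochondrial chaperones, chondrocyte, plasma cell, osteoblast, neutrophil, macrophage, synovial fibroblast, skeletal muscle, erythroid, and endothelial markers), and the tests were chosen with earlier results of these data known. The entry named Atf6 whose description is of Atf3 was left out. Of each list, up to 3 genes with an adjusted p under 0.05 and the largest change could be named, or else the 3 with the highest mean FPKM. The 5 genes most like the summed level were named too. Not all genes that this rule picked appear in the text. Most genes named after their values were seen are marked. Other genes outside the rule, such as Hba-a1, Prkcsh, Xbp1, and Creld2, are named without a mark. The replicate numbers of the labels did not pair the libraries. Alternatives were a pseudocount of 0.1, no filter or a filter at 1 FPKM, TPM over all or non-mitochondrial genes, quantile normalization, all 9 libraries in 1 fit, voom on recovered reads, the replicate number as a block, leaving out each library, and, chosen after seeing the data, the mitochondrial share as a covariate. Protein sequences were not used here.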

Additional observations from a re-analysis of the deposited data

How the results depend on the processing

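The number of the 10 genes past an adjusted p of 0.05 in limma was 0 in each comparison. Rescaling to TPM over all genes, mitochondrial ones included, made it 10 in model against control, where it shifted the median of all tested genes to -2.60 and called 69.6% of them, and 10 over the 3 groups, where it called 53.6% of them. This rescaling counts mitochondrial genes in the scale, whereas the size behind the deposited FPKM went with the reads of other genes. In SYD against control the same rescaling put all 10 genes below 0 (median -1.44, over all genes -1.31). Leaving out 1 library gave 0 to 2 genes in model against control and 0 to 4 over the 3 groups, with the highest counts without model 2. The 1 DEG in model against control became 10 under TPM over all genes, 2 under TPM over non-mitochondrial genes and with all 9 libraries in 1 fit, 0 without a filter, and 0 with the mitochondrial covariate, and ran from 0 to 6 without 1 library. The gene called was not always Hyou1: under TPM over non-mitochondrial genes the 2 were Hspa5 and Dnajc3, and with a pseudocount of 0.1 it was Dnajc3. The 3 DEGs in SYD against model became 0 under TPM over all genes, 0 with the covariate, and 1 with voom, and ran from 0 to 7. They were 2 without a filter and 2 under TPM over non-mitochondrial genes, there Hspa5 and Dnajc3 in place of Hsp90b1, Dnajc3, and Pdia6. The 0 DEGs in SYD against control became 3 under TPM over all genes, beside 43.4% of all tested genes. The causes were not tested. Of 480 fold changes of single genes under the alternatives, 448 kept direction without passing the threshold, or changed direction by less than the standard error. A further 12 passed the threshold only in the alternative, and 20 changed direction by more than that error. None of the 10 genes passed in the main fit, so the count could not show a lost call. A change of size in the same direction was counted as no change. The replicate number as a block gave 0 genes past the adjusted threshold in all comparisons and 1, 3, and 0 DEGs. Its basis was weak, since the deviations of same-numbered libraries correlated between -0.267 and 0.194. Depth limits model 1 most, where Dnajc3, Hyou1, and Pdia4 rest on 25, 26, and 37 reads.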

Other observations

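The remaining marker lists were read for the cells that a sample of cartilage with adjoining tissue can hold. Of 9 tested neutrophil markers, the granule protease genes Elane (-5.86, adjusted p = 0.0382) and Prtn3 (-3.87, adjusted p = 0.0382) fell in model against control in limma, and 4 genes fell in SYD against control, beside 17.3% of all tested genes past the threshold in that comparison. The summed FPKM of the 10 neutrophil markers in the table was 7985, 78.2, and 1997 in model 1, 2, and 3, against 3104 to 5954 in control and 559 to 3457 in SYD, with Ltf at 0 in all model libraries. All 9 tested were below 0 in model against control (median -3.07), and 5 of them met the DEG criteria, beside 11.2% of all tested genes lower in model. Of 10 macrophage markers, only Lyz2 passed the adjusted threshold and fell in model against control (-2.47, adjusted p = 0.0406, limma) and in SYD against control (-2.04, adjusted p = 0.0223, limma), and the sum was 1119 to 1703 in control, 288 to 520 in model, and 349 to 708 in SYD. Lyz2, at a mean of 1179 FPKM in control, makes up most of that sum, and 7 of the 10 markers were above 0 in SYD against control (list median 0.31).

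Of 7 tested endothelial markers, 5 rose in SYD against control in limma, led by Egfl7 (2.13, adjusted p = 0.00738), Pecam1 (1.83, adjusted p = 0.00870), and Emcn (1.83, adjusted p = 0.00611), beside 17.3% of all tested genes past the threshold. Their sum was 32.1 to 42.5 FPKM in control, 27.1 to 216 in model, and 95.2 to 126 in SYD. Of 9 synovial fibroblast markers, Dpp4 fell in model against control (-2.80, adjusted p = 0.0382, limma) and in SYD against control (-2.44, adjusted p = 0.00807, limma), and Fap rose in SYD against control (2.15, adjusted p = 0.0281, limma). Of the 9, 6 were above 0 in model against control (list median 0.54) and 7 in SYD against control (list median 0.77). The sum of 9 skeletal muscle markers ranged from 20.4 to 333 in control, from 36.8 to 802 in model, and from 26.9 to 1000.2 in SYD, and none passed the adjusted threshold in limma. Their part in the levels of the chaperone genes was not tested.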
